A study of Mus musculus with 66 samples.

Results

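Naive B cells from mouse spleen were compared after 4 h and after 2 h of stimulation with anti-CD40, across all genes. The comparison took 5 libraries at 4 h and 5 at 2 h, chosen by their titles, out of the 66 libraries of the series, and 10091 genes were tested. All of these cells came from BALB/c mice that carry an IgM B1-8 antigen receptor transgene, and were purified with beads before stimulation. The values are deposited log2 levels, in which a difference of 1 means a doubling. Besides the 4 h and 2 h anti-CD40 groups, 4 further groups of libraries were used for contrast, all of the same strain and tissue. They were unstimulated naive B cells, with 2 libraries at 4 h and 2 at 2 h, and germinal centre (GC) B cells with anti-CD40, with 5 libraries at 4 h and 4 at 2 h. The labels give neither the dose of antibody nor the age or sex of the mice. The labels do not state that replicate libraries are from different mice. The p-values therefore rest on the variation among these libraries, part or all of which may be technical. In RNA from bulk cultures, fewer cells of a type and less RNA per cell cannot be told apart.

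CD40 is a receptor of the tumour necrosis factor family through which helper T cells activate B cells. Antibodies that crosslink it recruit TRAF adaptors to its tail, which start MAP kinase signalling and both arms of the NF-kB pathway, the fast one that frees RelA and c-Rel from IkB proteins and the slow one that processes p100 into p52. Genes induced in the first wave include short-lived transcription factors and inhibitors that feed back on the same pathways, and later waves include survival, adhesion and growth genes.

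The 10 libraries fell into 2 sets that differ in how their titles spell the stimulus. Set A (mixed-case Cd40) held replicates 1 to 3 at each time and set B (upper-case CD40) held replicates 4 and 5 at each time, and the headers of the deposited columns are written in another form in each set. The unstimulated titles carry no such spelling, and those libraries were placed in set B because their headers have its form. Their commonest value, -4.833, was also that of set B, against -5.094 in set A. The sets differed in sex-linked and ribosomal transcripts: Xist lay between -3.49 and -1.06 in set A and between 6.04 and 7.56 in set B, while the ribosomal RNA entry Rn45s lay between 13.73 and 14.26 in set A and between 9.69 and 10.42 in set B. Because both sets held both times, the set entered the fit as a factor. Correlations of levels over the genes tested ran from 0.93 to 0.991 between libraries of the same time and set, and from 0.888 to 0.933 between libraries of the same set at different times. The B cell markers Ms4a1, Cd79a and Cd79b were above 9 in all 10 libraries. Of the other listed B cell markers, Blk lay between 7.88 and 9.34, Cd22 between 4.2 and 7.98, and Pax5 between 2.29 and 4.3. The naive B cell markers Fcer2a, Ccr7 and Cr2 lay between 9.76 and 12.06, between 10.95 and 11.43, and between 7.4 and 9.5. Of 5 GC markers, S1pr2 (1.91 to 3.57) and Rgs13 (3.03 to 5.82) were above the level of 1 in all 10 libraries and fell at 4 h, Mybl1 was below 1 in all 10, and Gcsam and Nuggc lay on both sides of it.

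At 4 h against 2 h, 4862 of 10091 genes changed, which is 48.2% of those tested. Of these, 2574 genes rose, 25.5% of those tested, and 2288 fell, 22.7% of those tested. The change passed 1 on the log2 scale in 752 of the genes that rose and in 883 of those that fell, and it passed 2 in 97 and 176. The lowest 4 h library lay above the highest 2 h library in 1285 genes (12.7%), and the highest 4 h library lay below the lowest 2 h library in 1239 genes (12.3%). The median difference over all genes was 0.04. Counts of rises and falls in the gene lists below stand beside 25.5% and 22.7%. Without stimulus 11.1% of all genes tested rose and 10.2% fell. The time effect was more positive with anti-CD40 than without in 7.48% and more negative in 8.1%. Against unstimulated cells 20.5% were higher and 19.2% lower with anti-CD40 at 4 h, and 6.01% and 6.69% at 2 h.

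The 12 largest rises and 12 largest falls were taken among called genes with a mean level of at least 4. They had the same sign in both sets, and predicted genes, antigen receptor segments, pseudogenes and small RNAs were left out. The rises so chosen included a stress-induced phosphoprotein, enzymes of sterol and amino acid synthesis, and interferon-inducible GTPases. Rtp4, Usp18 and Ccl22, given below, rose by more than any of them but lay outside this choice. Fam129a, a stress-induced protein of the Niban family (GRCm38 chr1:151571186-151721939, plus strand), had levels of 7.02, 6.75, 6.61, 7.14 and 7.41 at 4 h, against 3.14, 2.63, 3.01, 3.36 and 3.93 at 2 h. The groups did not overlap, and the difference was 3.77 ± 0.16 (SE, adjusted p = 9.6e-08), or 13.7-fold. In unstimulated cells Fam129a stayed low, at 1.75 and 2.69 at 4 h and at 2.34 and 2.73 at 2 h. Lss, which makes lanosterol from squalene epoxide (chr10:76531588-76557138), had levels of 6.11, 5.92, 5.92, 7.20 and 6.79 at 4 h, against 2.96, 2.86, 2.96, 4.06 and 3.72 at 2 h, a rise of 3.07 ± 0.12. Set B was higher than set A at both times for this gene, and the rise was present in each set. Eif4ebp1, a repressor of cap-dependent translation that mTORC1 inactivates, had levels of 6.96, 6.94, 6.71, 8.02 and 7.40 at 4 h, against 3.88, 4.20, 3.59, 5.27 and 4.19 at 2 h, a rise of 2.98 ± 0.20. The others of the 12 rises so chosen ran down to 2.30. They were Tmcc3, Fam160a1, Pck2 (mitochondrial phosphoenolpyruvate carboxykinase), Fam129c, Aldh18a1 (the first step of proline synthesis), Bcat1 (branched-chain amino acid transaminase), Igtp and Irgm1 (immunity-related GTPases) and Pyhin1. All 12 rose without overlap between the times, as 12.7% of all genes tested did, and they were chosen for their large differences. Igtp and Irgm1 have close relatives among the immunity-related GTPases, so their reads may be shared with other copies.

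The 12 largest falls, by the same choice, were in genes of varied function, among them receptors, an integrin chain, kinases and a nuclear receptor. Sorl1, a sorting receptor (chr9:41964720-42124297, minus strand), had levels of 3.13, 3.20, 3.13, 3.82 and 3.54 at 4 h, against 6.95, 7.23, 7.44, 6.38 and 7.66 at 2 h. The groups did not overlap, and the difference was -3.77 ± 0.23 (adjusted p = 4.5e-07), or 13.6-fold lower at 4 h. Cd22, an inhibitory sialic acid-binding lectin of B cells (chr7:30865402-30880342, minus strand), had levels of 4.20, 4.22, 4.81, 4.82 and 4.78 at 4 h, against 7.67, 7.64, 7.94, 7.67 and 7.98 at 2 h, a difference of -3.21 ± 0.14 (adjusted p = 1.1e-07). Unstimulated cells held Cd22 between 8.02 and 8.46, so that the 2 h anti-CD40 libraries were still near that level and the 4 h libraries were far below it. The other 10 were Antxr2, Itgb7 (the beta-7 integrin chain), Plau (urokinase), Ephx1, Mast4, Pld4, S1pr1, Nr4a2, Prf1 (perforin) and Srpk3, with falls between 2.67 and 3.42 on the log2 scale. All 12 fell without overlap between the times, as 12.3% of all genes tested did, and they too were chosen for their large differences. Perforin is a gene of cytotoxic cells. The summed linear level of the 6 listed NK cell markers lay between 11.3 and 21.9 at 4 h, against 57.5 to 71.4 at 2 h. Prf1 is itself 1 of the 6 and the highest of them at 2 h (5.69 to 5.88), so the sum largely repeats its fall. Of the others, Gzma fell (-2.32) and Nkg7 did not pass the test (-0.09). Ncr1, Klrb1c and Klrd1 were below the level of 1 in all 10 libraries. The part of cytotoxic cells in the fall of Prf1 was not tested.

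**Figure D1:**
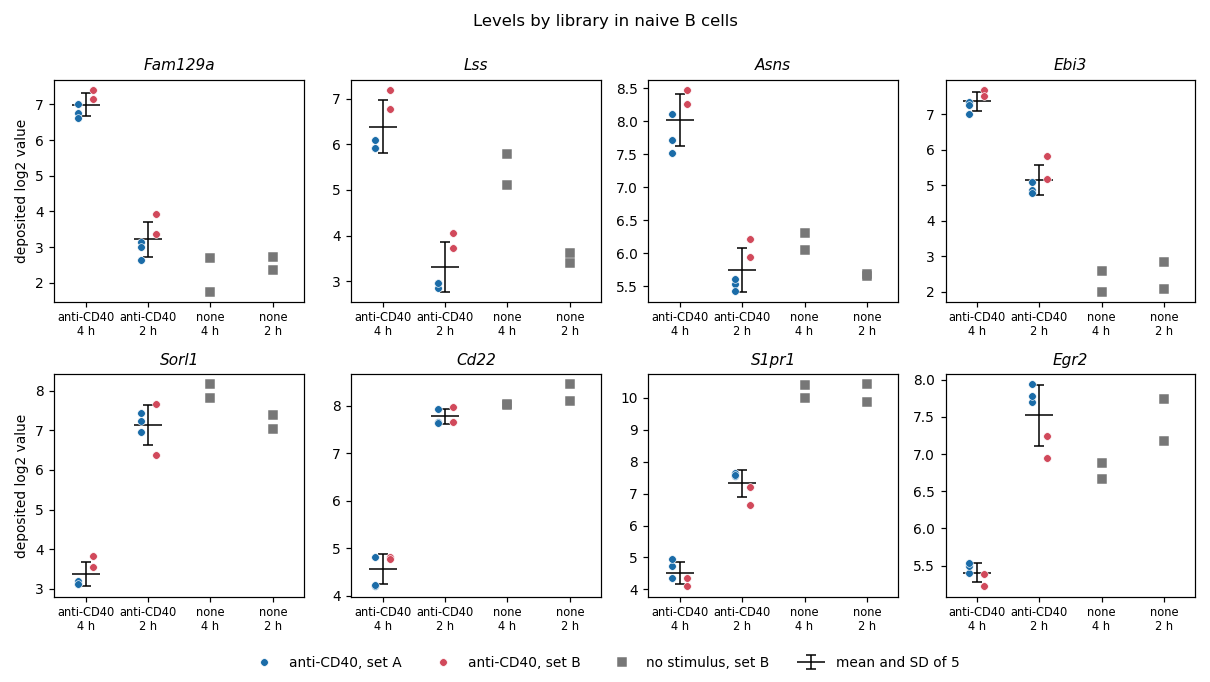
Deposited log2 levels of 8 genes in naive B cells with anti-CD40 at 4 h and 2 h and without stimulus at 4 h and 2 h. Blue points are set A, red points set B and grey squares unstimulated libraries, and bars give the mean ± SD of the 5 anti-CD40 libraries; at 4 h Fam129a, Lss, Asns and Ebi3 lie above, and Sorl1, Cd22, S1pr1 and Egr2 below, every 2 h anti-CD40 library.

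Immediate early genes, which are transcribed within minutes of a stimulus without new protein synthesis, were lower at 4 h nearly throughout. Of 24 tested, 22 fell and none rose, with a median difference of -1.73 beside 0.04 over all genes. Nr4a2, an orphan nuclear receptor, had levels of 3.28, 2.97, 3.13, 2.30 and 2.38 at 4 h, against 6.23, 5.97, 5.77, 4.86 and 5.03 at 2 h, a difference of -2.76 ± 0.13. Egr2, a zinc finger factor, had levels of 5.40, 5.50, 5.53, 5.22 and 5.39 at 4 h, against 7.94, 7.70, 7.79, 6.94 and 7.25 at 2 h, a difference of -2.11 ± 0.13. In both genes every 4 h library was below every 2 h library. Egr1 fell by 2.00, Nr4a1 by 2.31 and Zfp36 (which targets AU-rich mRNAs for decay) by 1.81 on the log2 scale. Ier3 and Srf were the 2 members that did not pass the test, at -0.30 and 0.16. Without stimulus 6 of the 24 fell, and the median was -0.36. For 10 of the 24 the difference between the 2 time effects was itself called, each more negative with anti-CD40. Those included Egr1 at -1.76 ± 0.40, Egr2 at -1.43 ± 0.26 and Nr4a1 at -2.03 ± 0.35.

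Against unstimulated cells the same list stood on different sides at the 2 times. At 4 h, 5 of 24 were higher and 11 lower with anti-CD40 than without (20.5% and 19.2% of all genes tested), with a median of -0.89, and at 2 h 7 were higher and 2 lower (6.01% and 6.69% of all genes), with a median of 0.46. For Nr4a1 the difference from unstimulated cells was -0.95 ± 0.27 at 4 h and 1.08 ± 0.27 at 2 h. The 10 tested phosphatases and adaptors that damp MAP kinase signalling all fell at 4 h against 2 h, with a median of -1.11. Dusp1 fell by 1.67, Dusp2 by 1.55 and Dusp5 by 1.14, each without overlap between the times. Of 14 genes of regulated mRNA decay, 11 fell and none rose, with a median of -0.76. They included Zfp36, the deadenylation cofactors Btg1 (-0.77) and Btg2 (-1.0), and Zc3h12d (-1.07), a relative of the RNase Regnase-1.

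NF-kB subunits and their inhibitors did not rise between the times, whereas their targets divided. Of 5 subunits, Rel fell by 1.06 ± 0.20 and Rela by 0.42 ± 0.13, and Nfkb1 (0.30), Nfkb2 (0.19) and Relb (-0.26) did not pass the test. The call of Rela was lost without 2 h replicate 2 or 3 and without 4 h replicate 2 or 3. Of 12 inhibitors and feedback genes, 7 fell (58.3%, beside 22.7% of all genes tested) and none rose, with a median of -0.50. Nfkbid, an atypical nuclear IkB protein, had levels of 8.22, 8.15, 8.12, 8.60 and 8.56 at 4 h, against 9.01, 9.07, 9.01, 9.46 and 9.41 at 2 h, a difference of -0.86 ± 0.08. Without stimulus Nfkbid differed the other way, by 0.69 ± 0.13, and the difference between the 2 time effects was -1.55 ± 0.16 (adjusted p = 0.00016). Nfkbia, which encodes IkB-alpha, fell by 0.48 ± 0.17 (adjusted p = 0.037) with groups that overlapped, a call lost in 8 of the 10 fits that left out 1 library, the exceptions being 2 h replicate 5 and 4 h replicate 4. Tnfaip3, which encodes the ubiquitin-editing inhibitor A20, differed by -0.20 ± 0.21 and did not pass. The same inhibitors were higher than in unstimulated cells in 6 of 12 cases at 4 h and in 7 of 12 at 2 h, with medians of 0.55 and 1.26.

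Of 28 NF-kB target genes 9 rose and 4 fell, 32.1% and 14.3% of the list beside 25.5% and 22.7% of all genes tested, and the median was 0.16. Ebi3, a subunit of the cytokines IL-27 and IL-35, had levels of 7.36, 7.27, 7.0, 7.70 and 7.51 at 4 h, against 4.87, 5.09, 4.78, 5.83 and 5.18 at 2 h, a rise of 2.22 ± 0.14 (adjusted p = 5.3e-07). Unstimulated cells held Ebi3 between 2.00 and 2.84. Ccl22, a chemokine that attracts T cells with CCR4, had levels of 4.89, 4.67, 4.22, 4.72 and 5.27 at 4 h, against 1.55, 0.68, 0.70, 1.15 and 0.66 at 2 h, a rise of 3.81 ± 0.24. Ccl22 also rose without stimulus, by 4.08 ± 0.58, where the 2 h libraries had -5.21 and -4.54, near the lowest deposited values. Ccl3 fell by 1.51 ± 0.14. Stat5a, which carries signals of cytokine receptors, rose by 1.24 ± 0.16.

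The NF-kB target list was far above unstimulated cells at both times, although it moved little between them. Anti-CD40 libraries were higher in 22 of 28 genes at 4 h and in 21 of 28 at 2 h, none was lower, and the medians were 2.46 and 1.79. Bcl2l1, which encodes the survival protein Bcl-xL, had levels of 9.40, 8.93, 8.67, 8.96 and 9.12 at 4 h, against 8.25, 7.99, 7.66, 7.29 and 7.85 at 2 h, a rise of 1.20 ± 0.18. It exceeded unstimulated cells by 4.91 ± 0.29 at 4 h and by 4.87 ± 0.29 at 2 h. Of 6 anti-apoptotic genes of the Bcl2 family 2 rose, Bcl2l1 and Bcl2a1a (0.92), and none fell. That is 33.3% of the list beside 25.5% of all genes tested, and without the libraries numbered 4 the number that rose was 4. The Bcl2a1 copies are nearly identical in sequence, and reads may be shared between them.

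Several textbook genes of CD40 signalling differed by less than the spread between libraries at 4 h against 2 h while both times lay far above unstimulated cells. Traf1, an adaptor and NF-kB target, had levels of 9.33, 9.11, 9.11, 9.94 and 9.93 at 4 h, against 9.41, 9.15, 9.02, 9.91 and 9.84 at 2 h, a difference of 0.02 ± 0.11. It was higher than in unstimulated cells by 3.55 ± 0.14 at 4 h and by 2.45 ± 0.14 at 2 h. Icam1, an adhesion ligand, differed by 0.00 ± 0.16 between the times and stood above unstimulated cells by 3.31 ± 0.25 and 3.61 ± 0.25. Ccnd2, the cyclin D2 gene, differed by 0.04 ± 0.18 and stood above by 3.97 ± 0.27 and 3.44 ± 0.27. Nfkb2, Relb, Birc3, Cd80, Cd83, Irf4, Bcl6 and Ccr7 also did not pass the test, with differences between -0.43 and 0.19. Cd40 itself rose by 0.40 ± 0.13 and Batf, an AP-1 partner in class switching, rose by 1.03 ± 0.21. Myc, the growth regulator, had levels of 9.03, 8.90, 8.96, 9.29 and 9.25 at 4 h, against 10.62, 10.24, 10.06, 10.15 and 10.20 at 2 h, a difference of -1.17 ± 0.13. It still exceeded unstimulated cells by 1.27 ± 0.18 at 4 h and by 1.88 ± 0.18 at 2 h. Fas, Cd86 and Prdm1 fell by 0.71, 1.03 and 0.85 on the log2 scale. The call of Cd40 was lost without 2 h replicate 1, 3 or 5 and without 4 h replicate 1, 2 or 4, and that of Prdm1 without 2 h replicate 1, 2 or 5 and without 4 h replicate 2, 3 or 4.

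Among 12 adaptors and kinases at the receptor 2 rose and 4 fell, 16.7% and 33.3% of the list beside 25.5% and 22.7% of all genes tested. Ikbke, the inducible IkB kinase epsilon, had levels of 4.96, 4.82, 4.59, 6.91 and 6.67 at 4 h, against 2.50, 2.76, 2.59, 4.29 and 4.51 at 2 h, a rise of 2.26 ± 0.13 with each set well separated between the times. The other gene that rose was Cd40. Those that fell were Tank (-1.07) and its partner kinase Tbk1 (-0.67), Traf3 (-0.85), which holds the slow NF-kB arm in check, and Traf6.

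**Figure D2:**
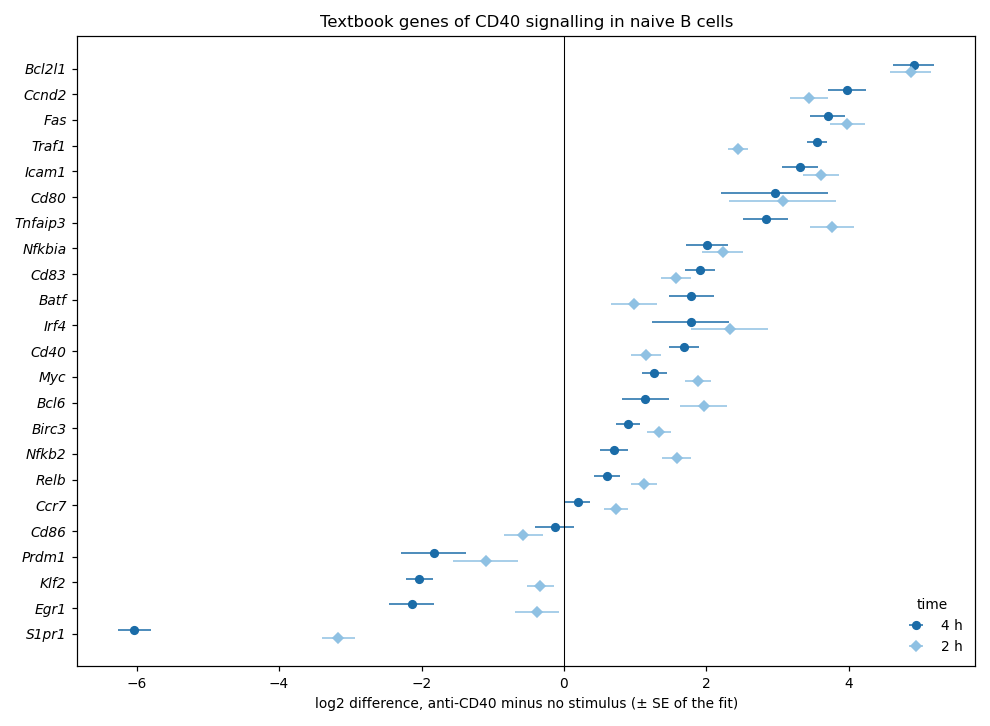
Difference in deposited log2 level, anti-CD40 minus no stimulus, for 23 textbook genes of CD40 signalling and B cell activation in naive B cells at 4 h and at 2 h, with standard errors. Bcl2l1, Ccnd2, Fas, Traf1 and Icam1 stand more than 2 above unstimulated cells at both times, and S1pr1 stands at -6.03 at 4 h and at -3.17 at 2 h.

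Most tested genes that keep B cells at rest, place them in lymphoid tissue or restrain their receptor fell, and a few rose. Of 16 tested quiescence genes 11 fell and 1 rose (Sesn1), with a median of -0.87. S1pr1, the sphingosine-1-phosphate receptor that lymphocytes use to leave lymphoid tissue, had levels of 4.36, 4.75, 4.96, 4.09 and 4.36 at 4 h, against 7.63, 7.54, 7.57, 6.63 and 7.22 at 2 h, a difference of -2.82 ± 0.15. Unstimulated cells held S1pr1 between 9.88 and 10.42, so each anti-CD40 group lay below them and the 4 h group lay lowest. Klf2, which drives S1pr1 in lymphocytes, had levels of 6.75, 6.61, 6.67, 6.73 and 6.87 at 4 h, against 8.21, 8.66, 8.64, 8.08 and 8.31 at 2 h, a difference of -1.66 ± 0.13. In unstimulated cells Klf2 lay between 8.50 and 8.90, and the difference from them was -2.03 ± 0.19 at 4 h, whereas -0.33 ± 0.19 at 2 h did not pass. Foxo1 fell by 1.14 and Klf3 by 1.08, the second also falling without stimulus, by 1.32.

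Of 13 inhibitory coreceptors and phosphatases 10 fell and 2 rose (Fcrl1 and Btla), with a median of -1.28. Besides Cd22, Ptpn22 (a phosphatase that damps antigen receptor signals) had levels of 4.95, 4.66, 4.79, 4.63 and 5.11 at 4 h, against 7.09, 7.06, 6.97, 6.24 and 6.70 at 2 h, a difference of -1.98 ± 0.16. Fcrla fell by 1.28 and Siglecg by 0.89. Without stimulus 1 of the 13 rose and 1 fell, 7.69% each, beside 11.1% and 10.2% of all genes tested. The difference between the time effects was called in 6 of the 13 (46.2%), each more negative with anti-CD40, beside 8.1% of all genes tested. Of 17 genes of proximal B cell receptor signalling 11 fell and 3 rose (Pik3cd, Vav2 and Syk), with a median of -0.54. The Src-family kinases Lyn and Blk fell by 1.26 ± 0.09 and 1.27 ± 0.09. Pik3ap1, an adaptor for PI3 kinase, fell by 1.88, and Malt1, the paracaspase that links the receptor to NF-kB, fell by 1.29. Positive and negative regulators of the receptor were thus both among the genes that fell.

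Most tested MHC class II genes and B lineage factors fell at 4 h. Of 13 MHC class II genes 7 fell and none rose, with a median of -0.71. H2-Oa, a chain of the peptide-loading inhibitor H2-O, had levels of 5.12, 5.21, 5.37, 4.73 and 4.82 at 4 h, against 7.05, 7.39, 7.84, 7.62 and 7.20 at 2 h, a difference of -2.37 ± 0.16. H2-DMb1, a chain of the peptide-loading catalyst H2-DM, fell by 1.98 ± 0.18. H2-Aa, an abundant classical chain, had levels of 12.43, 12.28, 12.59, 11.82 and 11.88 at 4 h, against 13.27, 13.36, 13.44, 12.82 and 12.96 at 2 h, a difference of -0.97 ± 0.11, also without overlap. Reads of near-identical H2 genes may be shared. None of the 13 changed without stimulus by the test. Of 13 genes of MHC class I presentation 4 rose (Tap1, Tap2, Psmb8 and Pdia3) and 1 fell (Nlrc5). These are 30.8% and 7.69% of the list beside 25.5% and 22.7% of all genes tested, so the share of rises was near that of all genes. The median was 0.33, with 0.29 within set A and 0.07 within set B, and without the libraries numbered 4 the number that rose was 7. The call of Nlrc5 was lost in 7 of the 10 fits that left out 1 library, the exceptions being 2 h replicates 2 and 4 and 4 h replicate 5. Of 15 B lineage transcription factors 9 fell and 2 rose (Tcf3 and Pou2f2), with a median of -0.57. Ikzf3 fell by 1.24, Foxo1 by 1.14 and Ebf1 by 0.82, while Tcf3, which encodes the E2A proteins, rose by 1.01 ± 0.11. Of 13 activation factors 8 fell and 1 rose, with Id2 (-1.84), Nfatc1 (-1.41) and Nfil3 (-1.02) among those that fell and Batf the one that rose.

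Of 12 receptors that position B cells 7 fell and none rose, with a median of -0.83. S1pr3, a second sphingosine-1-phosphate receptor, had levels of 4.67, 4.77, 5.02, 5.30 and 5.21 at 4 h, against 7.49, 7.32, 7.39, 7.34 and 7.37 at 2 h, a difference of -2.39 ± 0.12 (adjusted p = 1.5e-07). S1pr3 is also a marker of marginal zone B cells. Of 5 tested markers of marginal zone and B1 cells 4 fell, beside 22.7% of all genes tested, and none rose. Cd9 (6.23 to 7.12 at 4 h, 6.76 to 7.26 at 2 h) did not pass the test (-0.21). Of those that fell besides S1pr3, Cd5 and Bhlhe41 did not exceed 3.75 in the 10 libraries. The third was Dtx1, between 6.37 and 7.15 at 4 h, against 7.91 to 8.92 at 2 h. The summed linear level of all 6 listed lay between 245 and 274 at 4 h, against 550 to 793 at 2 h. In unstimulated cells it lay between 632 and 674 at 4 h and between 831 and 937 at 2 h. Dtx1 was the highest of the 6 at 2 h, and S1pr3 is itself in the sum. The part of these cells in the result was not tested. Gpr183, the oxysterol receptor EBI2, fell by 0.99 ± 0.11 yet exceeded unstimulated cells by 1.49 ± 0.15 at 4 h and by 1.93 ± 0.15 at 2 h. Of 8 RGS genes, which shorten G protein signals, 5 fell and 1 rose (Rgs19). Rgs1 (-1.63) and Rgs13 (-1.16) also fell without stimulus, by 1.76 and 1.98.

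Genes of amino acid supply rose for the larger part. The list holds transporters and enzymes of serine, asparagine and one-carbon metabolism, many of them targets of ATF4, the transcription factor of the amino acid response. Of 22 tested 16 rose and 3 fell, with a median of 1.07. Asns, asparagine synthetase, had levels of 8.11, 7.71, 7.52, 8.48 and 8.26 at 4 h, against 5.54, 5.62, 5.42, 6.22 and 5.95 at 2 h, a rise of 2.27 ± 0.12 (adjusted p = 2.3e-07). Unstimulated cells held Asns between 6.05 and 6.31 at 4 h and at 5.69 and 5.66 at 2 h, so that only the 4 h anti-CD40 libraries lay above them throughout. Shmt2, mitochondrial serine hydroxymethyltransferase, had levels of 9.35, 9.09, 9.01, 10.15 and 9.95 at 4 h, against 7.01, 6.99, 6.83, 7.74 and 7.86 at 2 h, a rise of 2.22 ± 0.10. Psat1 rose by 2.16 and Trib3, a pseudokinase induced by ATF4, by 2.97. The 3 that fell were Atf4 itself, by 0.32, and the transporter genes Slc38a1, by 0.79, and Slc38a2, by 0.49. The time effect differed from that of unstimulated cells in 11 members, more positive in 10, including Asns at 1.77 ± 0.22 and Psat1 at 1.70 ± 0.27.

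Cytosolic aminoacyl-tRNA synthetases, which charge tRNAs and include ATF4 targets, rose in 17 of 20 cases, and none fell. Their median of 1.07 stood beside 0.04 over all genes. Yars, tyrosyl-tRNA synthetase, had levels of 7.69, 7.51, 7.52, 8.54 and 8.24 at 4 h, against 6.17, 6.0, 5.77, 6.62 and 6.52 at 2 h, a rise of 1.69 ± 0.11. Cars rose by 2.07, Lars by 1.86 and Mars by 1.69. At 4 h 18 of the 20 were higher than in unstimulated cells, and at 2 h 1 was. These are 90.0% and 5.0% of the list, beside 20.5% and 6.01% of all genes tested. Sterol and fatty acid synthesis genes rose in 19 of 24 cases, and 1 fell (Scd1), with a median of 1.16. Dhcr7, the last step of cholesterol synthesis, had levels of 4.32, 4.30, 4.09, 5.20 and 5.50 at 4 h, against 0.91, 1.48, 1.55, 1.56 and 2.47 at 2 h, a rise of 3.09 ± 0.21. Fdps rose by 2.21 and Mvd by 2.01. Without stimulus 14 of the 24 sterol genes also rose (58.3%, beside 11.1% of all genes tested), with a median of 1.04. Against unstimulated cells 12 of the 24 were higher and 2 lower at 4 h, with a median of 0.89 (20.5% and 19.2% of all genes tested). At 2 h 7 were higher and 1 lower. At 4 h Dhcr7 differed from unstimulated cells by 0.04 ± 0.31 and Lss by 1.53 ± 0.21. The difference between the time effects was called in 5 of the 24, each more positive with anti-CD40.

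Interferon-stimulated genes rose in 16 of 23 cases, and none fell, with a median of 0.92. Usp18, which removes ISG15 from proteins, had levels of 5.53, 5.24, 5.01, 4.00 and 3.28 at 4 h, against 0.51, 0.78, 0.01, 1.33 and 0.02 at 2 h, a rise of 4.08 ± 0.38. Rtp4 rose by 4.09, Mx2 by 3.59 and Xaf1 by 2.87, all from low levels at 2 h. Without stimulus 11 of 24 tested rose and none fell, with a median of 1.03, and the difference between the time effects was called in 1 gene of the list, Gbp3, at -0.73 ± 0.20. Mx2 had levels of 2.45 and 3.25 in unstimulated cells at 4 h, against -0.96 and -0.25 at 2 h. Irf7 differed by 0.23 ± 0.20 and did not pass.

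Promoters of genes from these groups are shown because they hold the short motifs of factors known to act on such genes. The windows run from 250 bases before to 50 after each start site, from RefSeq on GRCm38.p6, and capitals mark each motif match on either strand. They were chosen for these matches after the values were seen. Asns (chr6:7693160-7693459, minus strand) and Yars (chr4:129189653-129189952, plus strand) hold the amino acid response motif TGATGNAA. Hmgcs1 (chr13:119690101-119690400, plus strand), HMG-CoA synthase, which rose by 1.63, holds the sterol element TCACNCCAC. Ifit3 (chr19:34583279-34583578, plus strand), which rose by 2.95, and Igtp (chr11:58199306-58199605, plus strand) hold the interferon element, TTTC, any 2 bases and TTTC again. Ebi3 (chr17:55952373-55952672, plus strand) holds the degenerate kB motif. Ifit3 has a near-identical copy, so its reads may be shared.
Asns: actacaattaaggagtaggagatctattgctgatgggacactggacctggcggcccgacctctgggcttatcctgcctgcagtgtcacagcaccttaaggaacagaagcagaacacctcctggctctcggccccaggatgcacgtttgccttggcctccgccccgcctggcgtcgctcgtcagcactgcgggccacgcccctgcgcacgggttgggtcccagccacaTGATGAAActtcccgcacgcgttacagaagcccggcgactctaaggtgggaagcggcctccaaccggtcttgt
Yars: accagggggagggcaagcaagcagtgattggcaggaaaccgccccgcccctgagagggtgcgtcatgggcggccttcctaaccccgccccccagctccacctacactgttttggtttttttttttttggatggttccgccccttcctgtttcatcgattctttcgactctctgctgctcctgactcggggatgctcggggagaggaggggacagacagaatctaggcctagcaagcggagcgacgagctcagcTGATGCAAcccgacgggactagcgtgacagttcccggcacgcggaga
Hmgcs1: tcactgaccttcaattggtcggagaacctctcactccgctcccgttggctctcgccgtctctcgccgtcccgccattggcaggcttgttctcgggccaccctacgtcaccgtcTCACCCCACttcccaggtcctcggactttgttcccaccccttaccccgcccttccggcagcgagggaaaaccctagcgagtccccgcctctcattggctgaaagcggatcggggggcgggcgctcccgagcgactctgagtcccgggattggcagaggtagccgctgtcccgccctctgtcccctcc
Ifit3: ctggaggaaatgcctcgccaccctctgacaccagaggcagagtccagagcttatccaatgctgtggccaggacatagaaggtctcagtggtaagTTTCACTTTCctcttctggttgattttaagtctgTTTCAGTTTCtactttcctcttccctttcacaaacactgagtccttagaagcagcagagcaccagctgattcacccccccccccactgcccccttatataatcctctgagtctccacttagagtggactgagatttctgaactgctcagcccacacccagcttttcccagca
Igtp: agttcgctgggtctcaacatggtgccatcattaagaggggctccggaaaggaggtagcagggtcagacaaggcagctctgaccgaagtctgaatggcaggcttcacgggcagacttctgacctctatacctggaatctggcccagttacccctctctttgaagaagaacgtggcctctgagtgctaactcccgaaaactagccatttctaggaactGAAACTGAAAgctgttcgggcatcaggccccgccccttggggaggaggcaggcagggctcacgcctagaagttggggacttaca
Ebi3: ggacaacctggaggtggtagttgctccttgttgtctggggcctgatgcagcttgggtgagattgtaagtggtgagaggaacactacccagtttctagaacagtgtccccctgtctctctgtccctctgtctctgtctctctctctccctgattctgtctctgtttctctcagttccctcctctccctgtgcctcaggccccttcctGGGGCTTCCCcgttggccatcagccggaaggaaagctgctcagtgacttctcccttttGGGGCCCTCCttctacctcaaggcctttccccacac

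A window was found for 8158 of the 10091 genes tested, or 80.8%. A gene counted as holding a motif if any of its windows held it, whereas the 32851 windows of the whole collection were counted singly. Of genes with a window, the amino acid response motif was present in 3.01% of those that rose and 2.71% of all tested. It was present in 3.97% of all 32851 windows. In the amino acid list 3 of 19 genes with a window held it, Asns, Trib3 and Chac1. The interferon element was present in 5.04% of genes that rose, in 3.89% of all genes tested and in 3.44% of all windows. The sterol element was present in 1.22%, 1.32% and 1.24% of the same 3 sets. The degenerate kB motif was present in 11.2%, 12.1% and 8.46%. It was held by 34.8% of the 23 NF-kB targets with a window and by 35.0% of the 20 immediate early genes with one. For genes that fell, and for the synthetase, sterol and interferon lists, fewer than 80% of members had a window, so shares for these sets were void and are not given. A match describes the letters in the window and is not a binding site.

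Ribosome biogenesis genes stood well above unstimulated cells by 4 h. Between the times, in the fit of both sets, their share of rises was near that of all genes and few fell. Of 35 ribosome biogenesis genes 11 rose and 2 fell (Rrs1 and Nob1), 31.4% and 5.71% beside 25.5% and 22.7% of all genes tested, with a median of 0.10. Without the libraries numbered 4 the numbers were 15 and 5. Within set A they were 20 and 3, or 57.1% and 8.57% of the list, beside 32.3% and 29.7% of all genes tested there. The median was 0.36 within set A and -0.08 within set B. Bop1, a ribosome assembly factor, had levels of 8.18, 7.96, 7.93, 8.72 and 8.26 at 4 h, against 6.79, 6.71, 6.72, 7.81 and 7.74 at 2 h, a rise of 1.05 ± 0.13. Npm1, nucleophosmin, rose by 0.68 and Ddx10 by 0.62. Without stimulus 25 of the 35 fell and none rose, with a median of -0.92. The difference between the time effects was called in 26 of the 35, each more positive with anti-CD40, and the median was 1.06. At 4 h 33 of the 35 were higher than in unstimulated cells and at 2 h 5 were, with medians of 1.43 and 0.34.

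Mitochondrial, proteasome and chaperone genes moved by smaller amounts. Of all genes tested 25.5% rose and 22.7% fell, and without the libraries numbered 4 the numbers were 3320 and 3021 of 10091. Of 76 mitochondrial ribosomal protein genes 32 rose (42.1%) and none fell, with a median of 0.32. The median was 0.53 within set A and 0.03 within set B, and without the libraries numbered 4 the number that rose was 56. Of 37 proteasome subunit genes 19 rose (51.4%) and none fell, with a median of 0.44, and without those libraries 33 rose. Psmd1, a subunit of the regulatory particle of the proteasome, rose by 1.13 ± 0.10. Of 28 oxidative phosphorylation genes 16 rose (57.1%) and 1 fell (Uqcrfs1), with a median of 0.43, led by Cyc1 (cytochrome c1) at 1.03 ± 0.16. Of 23 chaperones 16 rose (69.6%) and none fell, with a median of 0.43. Trap1, a mitochondrial relative of HSP90, rose by 1.11 and the HSP90 cochaperone Fkbp4 by 1.33. Of 79 cytosolic ribosomal protein genes 1 rose (Rps2, 1.27% of the list) and none fell, and without the libraries numbered 4 the numbers were 40 and 1. The count for that list therefore depended on those libraries.

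Among 18 tested G1 cell cycle genes 4 rose (Cdk4, Skp2, Cdkn2c and Rbl1) and 7 fell, 22.2% and 38.9% of the list beside 25.5% and 22.7% of all genes tested. Cdk4, the kinase of the D cyclins, had levels of 8.85, 8.83, 8.78, 8.87 and 8.78 at 4 h, against 7.18, 7.36, 7.16, 7.99 and 7.77 at 2 h, a rise of 1.33 ± 0.13. Without stimulus Cdk4 differed by 0.08 ± 0.20. The inhibitors Cdkn1a (p21) and Cdkn2d (p19) fell by 2.06 ± 0.19 and 2.04 ± 0.21. Cdkn1a fell as much without stimulus, by 2.00 ± 0.30, and E2f2 fell by 1.76 with anti-CD40.

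**Figure D3:**
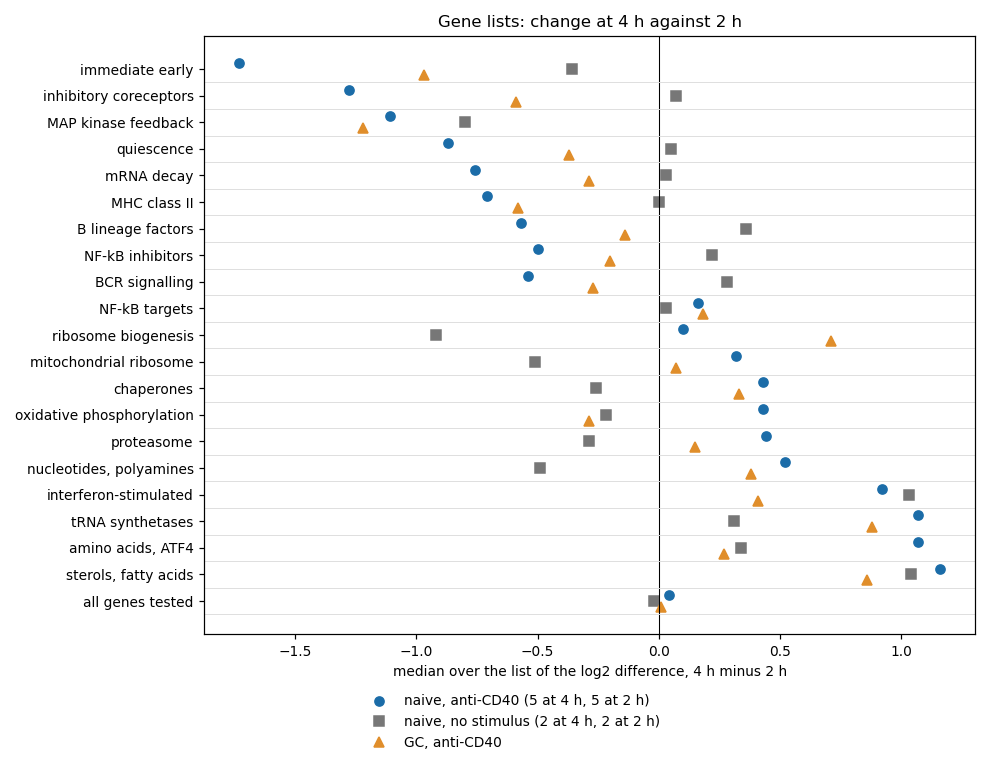
Median difference in deposited log2 level at 4 h against 2 h for each gene list, in naive B cells with anti-CD40, in naive B cells without stimulus and in GC B cells with anti-CD40. With anti-CD40 in naive cells the immediate early list lies lowest of the lists described, at -1.73, and the sterol list highest, at 1.16; ribosome biogenesis lies at 0.10 with anti-CD40 and at -0.92 without stimulus.

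Culture time alone also changed many genes. In unstimulated naive cells 1148 of 10333 genes tested rose at 4 h against 2 h (11.1%) and 1057 fell (10.2%), 2205 in all. With 2 libraries a time the total rested on single libraries, and it was 981 without unstimulated 2 h replicate 1, 1370 without unstimulated 4 h replicate 1 and 1231 without unstimulated 4 h replicate 2. Over the 10091 genes of the anti-CD40 comparison, the anti-CD40 and unstimulated time effects correlated at a Pearson r of 0.47, as a description across genes that share libraries and scaling. Of the genes that rose with anti-CD40, 639 also rose without stimulus, which is 24.8% of the rises with anti-CD40 and 56.0% of those without. Of the genes that fell, 536 fell in both, which is 23.4% of the falls with anti-CD40 and 51.2% of those without. Opposite calls were made for 70 genes higher with anti-CD40 and lower without, and for 100 genes lower with and higher without.

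The time effect itself differed between anti-CD40 and no stimulus in 1610 genes (15.6%), more positive with anti-CD40 in 773 (7.48%) and more negative in 837 (8.10%). This count was 2952 without anti-CD40 2 h replicate 4, 600 without unstimulated 2 h replicate 1 and 657 without unstimulated 4 h replicate 2. Fam129a stood at 4.09 ± 0.37 and Sorl1 at -4.54 ± 0.41. Itgb7 had levels of 2.30, 2.87, 3.47, 2.75 and 2.84 with anti-CD40 at 4 h, against 5.86, 5.97, 6.23, 5.39 and 5.52 at 2 h, whereas unstimulated cells had 7.46 and 7.29 at 4 h, against 6.17 and 6.36 at 2 h. Its fall with anti-CD40 and its rise without gave a difference of -4.06 ± 0.35 (adjusted p = 8.3e-05). Lrrk2, a leucine-rich repeat kinase, Pde2a, a cyclic nucleotide phosphodiesterase, and Adcy7, an adenylyl cyclase, showed the same opposition, at -3.22 ± 0.38, -3.50 ± 0.49 and -3.18 ± 0.34. Timm8a1, a mitochondrial import chaperone, had levels between 4.23 and 4.64 with anti-CD40 at 4 h and between 4.33 and 5.0 at 2 h, and 1.86 and 1.77 without stimulus at 4 h against 4.41 and 4.36 at 2 h. That difference of 2.35 ± 0.26 came with a fall in unstimulated cells and with no call under anti-CD40.

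**Figure D4:**
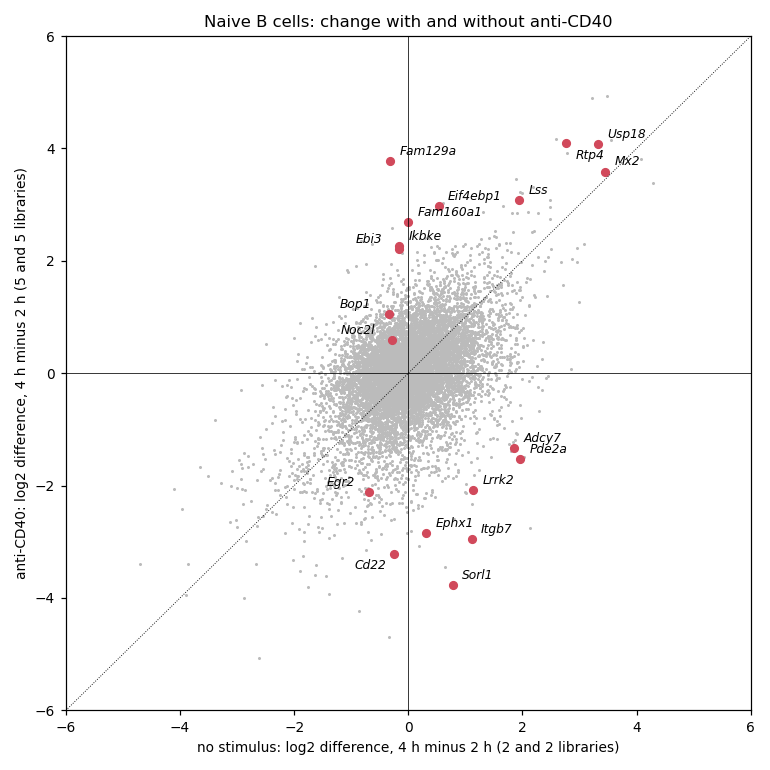
Time effect on each of 10091 genes, 4 h minus 2 h in deposited log2 level, with anti-CD40 on one axis and without stimulus on the other. The points scatter around a positive slope (r = 0.47), and Fam129a and Sorl1 lie far from 0 with anti-CD40 at 3.77 and -3.77 while lying at -0.32 and 0.78 without stimulus.

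The number of genes separating anti-CD40 from unstimulated cells was larger at 4 h. At 4 h 4101 of 10333 genes differed (39.7%), 2120 higher and 1981 lower with anti-CD40. At 2 h 1312 differed (12.7%), 621 higher and 691 lower, a count that was 2284 without anti-CD40 2 h replicate 4 and 551 without unstimulated 2 h replicate 1. Of the genes higher at 4 h 457 were also higher at 2 h, which is 21.6% of the 4 h list and 73.6% of the 2 h list. Of those lower at 4 h 525 were also lower at 2 h, which is 26.5% and 76.0% of the lists. The direction was opposite in 3 and 6 genes. S1pr1, Bcl2l1 and Ccnd2 were among those called at both times, and Sorl1, Cd22 and Klf2 were called at 4 h and not at 2 h.

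GC B cells given the same stimulus showed a related time course with named exceptions. In GC cells 3746 of 10631 genes changed at 4 h against 2 h (35.2%), 2013 up (18.9%) and 1733 down (16.3%), and the naive and GC time effects correlated at 0.66 over 10091 genes. Fam129a rose in both, by 3.77 ± 0.16 in naive and 3.41 ± 0.16 in GC cells, and Antxr2 fell in both, with differences of -3.42 and -3.17. The time effect differed between naive and GC cells in 1581 genes (14.9%), more positive in naive cells in 779 (7.33%) and more negative in 802 (7.54%). Members of the amino acid list were more positive in naive cells in 12 of 22 cases, including Psat1, with 2.16 ± 0.14 in naive and 0.27 ± 0.13 in GC cells. Interferon-stimulated genes were more positive in naive cells in 8 of 23 cases and oxidative phosphorylation genes in 12 of 28. Ribosome biogenesis genes went the other way, more negative in naive cells in 16 of 35, with a median of 0.10 in naive and 0.71 in GC cells. Myc fell by 1.17 ± 0.13 in naive cells and differed by 0.15 ± 0.13 in GC cells, a difference in time effect of -1.32 ± 0.18. Id2, an inhibitor of E proteins, fell by 1.84 ± 0.11 in naive cells and rose by 0.89 ± 0.15 in GC cells.

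The 2 library sets gave the same direction for most genes and differed in the number called. Within set A, with 3 libraries a time, 6256 genes were called (62%), 3256 up (32.3%) and 3000 down (29.7%). Within set B, with 2 libraries a time, limma called none after adjustment and 1787 genes had an unadjusted p under 0.05. The 2 time effects correlated at 0.81 across the 10091 genes, and 78.7% of all genes tested had the same sign in both sets. Of the genes called in set A 89.2% had the same sign in set B. The test of the difference between the sets called 1 gene (0.00991%). It was Sesn2, a stress-induced sestrin, whose time effect was 0.47 ± 0.10 in set A and 2.29 ± 0.26 in set B. In that test, with 2 libraries a time in set B, 1120 of 10091 genes had an unadjusted p under 0.05. Among genes called in set A, and so chosen on that set, the median ratio of the set B to the set A time effect was 0.69.

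**Figure D5:**
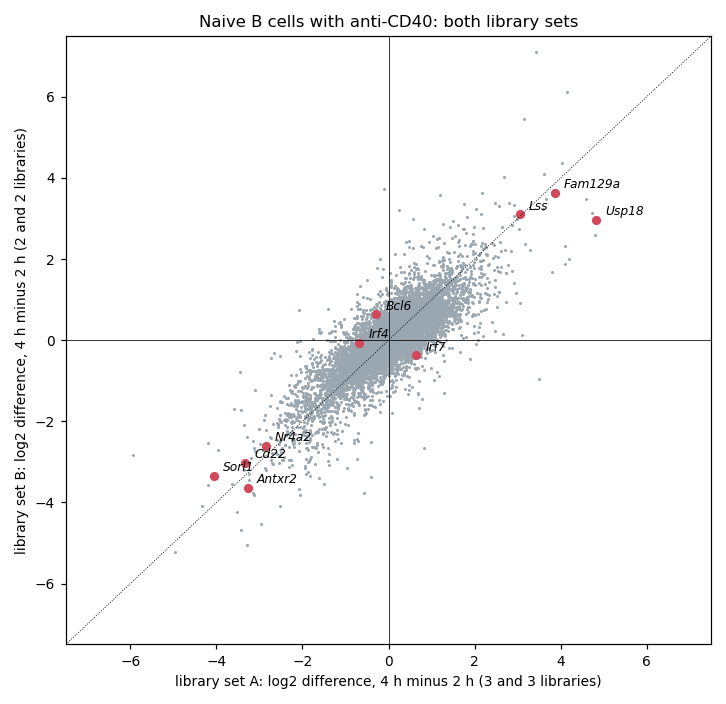
Time effect within set A against time effect within set B for 10091 genes, each as 4 h minus 2 h in deposited log2 level. Points lie along a rising line (r = 0.81).

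Without both libraries numbered 4, which belong to set B, 6341 genes were called, 3320 up and 3021 down, against 2574 and 2288 with them. The median of each gene list described above kept its sign without them, and counts of called members that moved by more than 1.5 times are given beside the lists.

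Some markers of cells other than B cells fell at 4 h. Beside 22.7% of all genes tested, those called lower were 6 of 8 tested myeloid markers (Lyz2, Csf1r, Cd14, Cd68, S100a9 and Fcgr3), 3 of 6 erythroid and platelet markers, 2 of 4 T cell markers, 2 of 3 NK cell markers, 1 of 2 dendritic cell markers and 2 of 3 stromal and endothelial markers, and none of these lists had a member that rose. Summed on the linear scale, myeloid markers lay between 172 and 352 at 4 h, against 209 to 436 at 2 h, and overlapped, as did dendritic cell markers, between 128 and 183 at 4 h, against 175 to 252 at 2 h. Erythroid and platelet markers lay between 125 and 222 at 4 h, against 291 to 524 at 2 h, without overlap. T cell markers lay between 63.1 and 86.7 at 4 h, against 119 to 159 at 2 h, also without overlap. Each of these 2 sums was set mostly by 1 gene. In the first, Beta-s lay between 6.7 and 7.63 at 4 h, against 7.95 to 8.9 at 2 h. In the second, Lck lay between 5.89 and 6.34 at 4 h, against 6.8 to 7.18 at 2 h, and no other T cell marker exceeded 2.38. Cd3e fell (-1.5), while Cd3d (0.13) and Cd3g (0.21) did not pass the test. Cd4, Cd8a and Cd8b1 were below the level of 1 in all 10 libraries. B cell markers summed to between 4370 and 6300 at 4 h, against 4920 to 7550 at 2 h. The part of other cells in the falls was not tested.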

How the data were processed

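RNA of splenic naive B cells was extracted with RNeasy Plus Mini and made into libraries with the SMART-Seq v4 kit, per the labels' protocols. The treatment note on these libraries speaks of GC B cells although their cell type label is naive. Per the submitters' processing notes, reads were handled with STAR 2.6.1a, Trim Galore 0.6.5, FastQC 0.11.7, limma and featureCounts of Subread 2.0.1, on build mm10. No order or settings are given. Each library has 1 deposited column of log2 values, and the scaling behind them is not given in the sources used here. The sorted values of the libraries differed by up to 0.166 in set A and by up to 0.792 in set B, and the highest value was the same at 4 h and 2 h in each of 5 replicate numbers. Read counts and depth are unknown, so no value carries a counting interval. The kit does not mark strand, so antisense and overlapping genes cannot be told apart.

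Genes that passed a log2 value of 1 in 4 or more libraries were fitted with limma 3.58.1 (R 4.3.3, statmod 1.5.0; lmFit, eBayes with trend and robust) as group plus library set, with 7 residual degrees of freedom in the 10 libraries. The unstimulated and GC contrasts came from fits of 14 and 19 libraries. P-values are two-sided, with Benjamini-Hochberg adjustment across the genes of each fit, and a gene was called, written as rose or fell, at an adjusted p under 0.05. Errors are standard errors unless given as SD. The fits were tested on simulated data. The comparison and the gene lists were chosen with earlier results of these data known. Named genes were the 12 largest rises and 12 largest falls with a mean level of at least 4 and the same sign in both sets, the 6 largest differences in each direction from unstimulated and from GC cells, up to 4 members of each list with the smallest p, and 23 textbook genes. Other genes named as the few members of a list that went one way, and genes of shown promoters, were chosen after their values were seen. Ighm, Ighd and Fcmr were not analysed here. A few other genes are not reported here and are left out of the lists. Gene coordinates are from the GENCODE annotation of GRCm38, the assembly called mm10. Summed marker levels are sums of back-transformed log2 values. Figures were drawn with matplotlib 3.10.9. Alternatives changed the filter, pseudocount, centring, set term, moderation, libraries and replicate block.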

Additional observations from a re-analysis of the deposited data

Results flagged for a closer look

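In 302 groups of 5 libraries, covering 151 genes at both times, 19 single libraries stood apart from the other 4 of their time by more than Dixon's critical value of 0.71, and 18 of these were libraries numbered 4. Chance gives about 1 in 20 groups, or about 15 here. That figure concerns the total only, and not the place of 18 of the 19 in libraries numbered 4. Each group holds libraries of both sets, and the cause was not tested. At 4 h replicate 4 was highest for Relb (8.56), Cd86 (9.10), Cd83 (12.91), Fas (6.43), Mrpl49 (5.80), Cyc1 (8.87) and Sdha (9.12) and lowest for Traf3 (4.83). At 2 h replicate 4 was highest for Srpk3 (7.05), Tank (9.43), Id2 (8.29), Rgs13 (5.82) and Cyc1 (8.18), and lowest for Irf4 (8.33), Nr4a1 (9.63), Rel (7.18), Traf3 (5.51) and Ikzf3 (6.53). The exception was 2 h replicate 5, highest for Hsph1 at 6.72.

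The time effect under anti-CD40 differed between naive and GC B cells in the following named genes, by limma's test of the difference itself. It was more positive in naive cells for Aven (2.74), Irf7 (2.45), Eif4ebp1 (2.44), Phf11b (2.26), Suds3 (2.03), Pck2 (1.93) and Bcl2l1 (0.80). Irf7 fell by 2.21 in GC cells and was not called in naive cells. The time effect was more negative in naive cells for Id2 (-2.73), St14 (-2.65), Neil1 (-2.24), Dnase1l3 (-2.09), Hpse (-2.07), Egr1 (-1.42), Myc (-1.32), S1pr1 (-1.22) and Birc3 (-0.81). St14 rose by 2.80 in GC cells and was not called in naive cells. Neil1 had levels of 2.83, 2.97, 3.30, 3.81 and 3.46 in naive cells at 4 h, against 5.79, 6.0, 6.02, 5.91 and 5.33 at 2 h.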

How the results depend on the processing

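The 4862 genes called at 4 h against 2 h became 4120 with no filter, 3613 with no set term, 6256 within set A and 0 within set B, and between 4129 and 5734 with 1 library left out. With the replicate number as a block in place of the set it was 5697. Pairing by number did not look the same in both sets. Deviations of same-numbered libraries correlated between 0 and 0.04 in set A, so no pairing was seen there in this measure. Same-numbered libraries of set A did share their highest value at 4 h and 2 h. In set B the correlation was 0.739, a single value because 2 libraries a time deviate by mirror amounts. A replicate block in set B only gave 6059 genes. Without stimulus, the 2205 genes became 1424 with no filter and 1195 with no set term, and ranged from 981 to 2818 with 1 library left out. The 1610 genes whose time effect differed from no stimulus became 987 with no filter, 730 with no set term, 2597 with all 66 libraries, 3237 with the replicate block, 2 using set B alone and 2996 without replicate 4 at both times, an alternative added after the data were seen, and ranged from 600 to 2952 with 1 library left out. For anti-CD40 against none at 2 h the 1312 genes became 2604 without replicate 4 at both times, with a range of 551 to 2284. For naive minus GC the 1581 became 518 with no set term, 2649 within set A and 0 within set B. Ranges were 2949 to 4386 for anti-CD40 against none at 4 h, 1160 to 2158 for naive minus GC, 5442 to 6224 within set A and 123 to 921 within set B, where a time with 1 library left is assumed to vary like the other pair. The causes were not tested. Exact motifs lowered shares to 5.26% for the amino acid motif in its list, 8.70% for kB in NF-kB targets, and among rises to 0.988% for the interferon element and 1.04% for the amino acid motif.

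Sign changes occurred in named genes that were not called at 4 h against 2 h. Within set A these were Nfkb2 (-0.083), Traf1 (-0.010), Cd83 (0.090), Icam1 (-0.117), Bcl6 (-0.289, adjusted p = 0.0371 within that set), Ccr7 (-0.122) and St14 (-0.140), and within set B Tnfaip3 (0.333) and Irf7 (-0.377). Without replicate 4 at both times they were Icam1 (-0.073), Bcl6 (-0.141), Ccr7 (-0.050) and St14 (-0.026). With 1 library left out, ranges were -0.165 to 0.001 for Birc3, -0.025 to 0.080 for Traf1, -0.121 to 0.097 for Icam1, -0.078 to 0.149 for Ccnd2, -0.151 to 0.189 for Bcl6, -0.043 to 0.098 for Ccr7, -0.126 to 0.308 for Cd80 and -0.117 to 0.068 for Cd83. Nfkbia, Cd40 and Prdm1 lost their call with no filter and with no set term, and Rela and Nlrc5 with no filter.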

Other observations

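Gene groups not described above are given here at 4 h against 2 h with anti-CD40, where 25.5% of all genes tested rose and 22.7% fell. Of 18 glycolysis genes 9 rose and 3 fell, and the median was 0.30. Of 21 genes of nucleotide and polyamine synthesis 10 rose and 2 fell, with a median of 0.52, whereas without stimulus 1 rose and 10 fell, with a median of -0.49. The difference between those time effects was called in 12 of the 21, each more positive with anti-CD40. Of 22 translation factors 11 rose and 1 fell (Eef1e1), and without the libraries numbered 4 the numbers were 12 and 4. Of 16 cytokine receptor genes 10 fell and 3 rose, with a median of -0.63, and 9 of the 16 were more negative in naive than in GC cells. Of 22 lysosome and autophagy genes 8 fell and none rose, and in GC cells 12 fell and 1 rose. Of 19 genes of mitosis 6 fell, 31.6% of the list, and none rose.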
